A study of Bos taurus with 14 samples.

Results

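The miR-25/miR-92 family is a group of mature microRNAs (miRNAs) that share the same seed, the short stretch near the 5′ end by which a miRNA pairs with its target mRNAs. Members with a shared seed can lower the output of overlapping sets of mRNAs, so the amount of each member and the balance between them both describe the family. The family was represented by bta-miR-25, bta-miR-32, bta-miR-92a, bta-miR-92b and bta-miR-363. These 5 members were taken by name from 1030 mature miRNAs with distinct names in the deposited count table, and all 5 were among the 341 miRNAs that passed the filter on low counts. A 6th miRNA placed in this family in other mammals, bta-miR-367, had 0 reads over all heifers.

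Peripheral white blood cells (PWBC) had been collected at weaning from Angus-Simmental crossbred heifers, before breeding, and 1 small RNA library was sequenced from each animal. The labels give no treatment, and the groups differ in what happened later. The fertile heifers (FH, n = 7) became pregnant to artificial insemination (AI). The subfertile heifers (SFH, n = 7) were not pregnant after AI and the natural service season that followed it, so heifers that missed AI but conceived by a bull are in neither group. Libraries held 1754971 to 5468341 reads on mature miRNAs, with a median of 3319368 in FH and 2663375 in SFH. The white cell miRNAs bta-miR-150, bta-miR-342, bta-miR-223 and bta-miR-142-5p were each counted in all 14 heifers. PWBC are a mixture of lymphocytes, granulocytes and monocytes, and in such bulk samples fewer cells of a type and less of a miRNA per cell cannot be told apart.

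The members come from several primary transcripts, and miR-363 shares one with a precursor of miR-92a. RefSeq places their genes on ARS-UCD2.0, a newer cattle assembly than the one used for counting. There the gene of miR-25 lies within *MCM7*, a DNA replication licensing gene, beside the genes of miR-93 and miR-106b. The gene of miR-32 lies within *TMEM245*. The mature miR-92a has a pair of precursor genes. One ends the miR-17 cluster (miR-17, miR-18a, miR-19a, miR-20a, miR-19b), a polycistron known for driving lymphocyte growth. The other lies between miR-363 and miR-19b-2 in the miR-106a-363 cluster. The gene of miR-92b overlaps no gene, and its nearest neighbours are *THBS3* and *MUC1*, not other miRNA genes.

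The members fell into an abundant pair and a scarce trio. Values are given in CPM of the deposited table, that is, reads on a miRNA per 1000000 reads on the 341 listed miRNAs of the same heifer. Over the 14 heifers bta-miR-92a averaged 30663 CPM and ranked 10th of the 341, and bta-miR-25 averaged 19573 CPM and ranked 12th. bta-miR-363 (739 CPM, rank 84), bta-miR-92b (481 CPM, rank 94) and bta-miR-32 (354 CPM, rank 109) were far lower. bta-miR-92a exceeded bta-miR-25 in 14 of 14 heifers, by a median of 1.52 times and by at least 1.14 times. bta-miR-25 exceeded bta-miR-363 in 14 of 14 heifers, by a median of 24.8 times. The order within the scarce trio was not fixed, since bta-miR-363 exceeded bta-miR-92b in 11 of 14 heifers and bta-miR-92b exceeded bta-miR-32 in 10 of 14, with overlapping ranges. Reads per heifer ran from 511 to 2919 for bta-miR-92b and from 282 to 3576 for bta-miR-32, so the 95% Wilson interval of a share was within 8.68% and 11.7% of its value at the lowest counts. For bta-miR-92a and bta-miR-25 it was within 1.06% of the value in every heifer. These intervals cover counting error only, and the spread between heifers described next was wider.

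**Figure D1:**
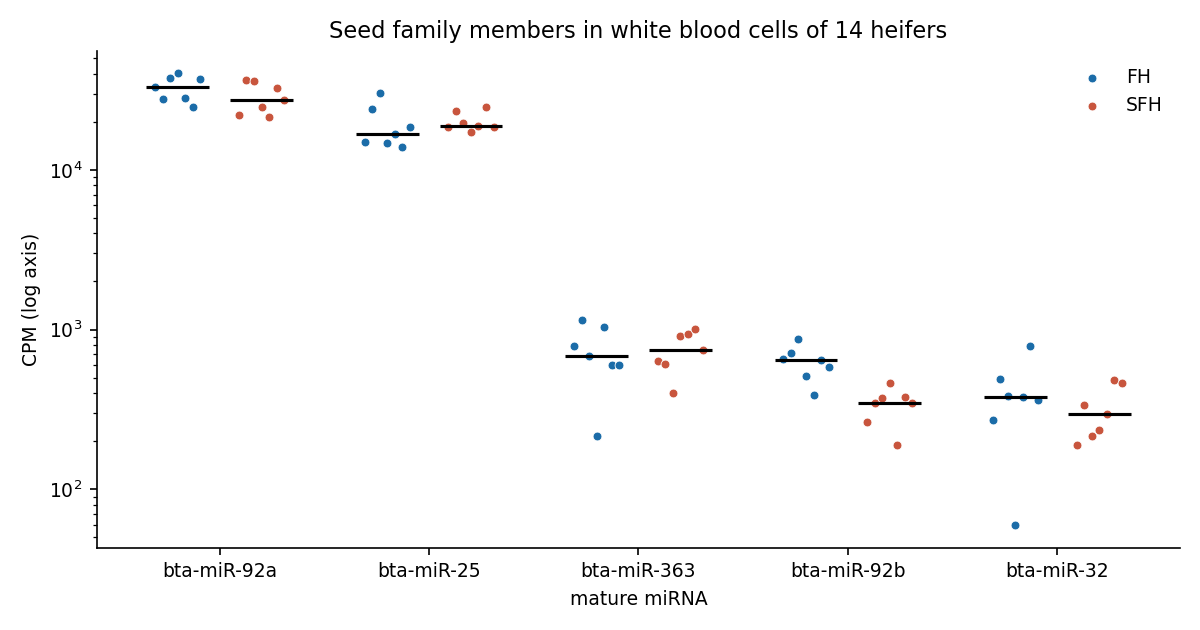
Deposited CPM (vertical log axis) of the 5 members in each FH heifer (blue) and SFH heifer (red), with a black bar at the group median. bta-miR-92a and bta-miR-25 lie at 13829 CPM or more in every heifer, and bta-miR-92b is the member whose groups overlap least.

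Only bta-miR-92b, a member described in stem and progenitor cells, passed the thresholds between the groups. In FH it ran from 392 CPM in heifer 27 through a median of 648 CPM to 874 CPM in heifer 24. In SFH it ran from 190 CPM in heifer 28 through a median of 348 CPM to 461 CPM in heifer 26. The groups overlapped through FH heifer 27 and SFH heifer 26 alone: 6 of 7 FH heifers were above every SFH heifer, and 6 of 7 SFH heifers were below every FH heifer. With counts scaled by the trimmed mean of M values (TMM), 6 FH heifers were again above every SFH heifer, and 0.880% of the 341 miRNAs had at least 6 FH heifers beyond all SFH heifers in either direction. The fitted level in SFH was 0.515 times that in FH, with a 95% interval of 0.370 to 0.715 times (log2 fold change −0.96, standard error 0.23). A miRNA was called where edgeR's quasi-likelihood p-value was at most 0.05 and the absolute log2 fold change at least 0.5. These cut-offs are those of the study, which tested in DESeq2; that test called 16 miRNAs against 13 in edgeR. By this rule 1 of the 5 members was called, against 3.81% of all 341 miRNAs in either direction and 2.35% lower in SFH. The unadjusted p-value of bta-miR-92b in edgeR was 0.00042, and its Benjamini-Hochberg adjusted p-value over the 341 miRNAs was 0.142. No miRNA of the 341 reached an adjusted p-value of 0.05 in edgeR (by unadjusted p-value, 20 were at or under 0.05), whereas DESeq2 gave 2 such miRNAs and an adjusted p-value of 0.0054 for bta-miR-92b.

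bta-miR-92a, the most abundant member, overlapped between the groups. It ran from 24835 to 40159 CPM in FH (median 32999 CPM) and from 21488 to 36399 CPM in SFH (median 27417 CPM). FH heifers 24, 25 and 31 lay above every SFH heifer, 3 SFH heifers lay below every FH heifer, and the others overlapped. The fitted level in SFH was 0.84 times that in FH (95% interval 0.67 to 1.06). The exact permutation test did not tell the groups apart (p = 0.0991). All permutation tests between the groups were two-sided, compared 7 heifers with 7, and used log2(TMM CPM + 0.5) for single members. A fold as large as that of bta-miR-92b lay outside this interval.

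For bta-miR-25, FH ran from 13829 to 30207 CPM (median 16826 CPM) and SFH from 17245 to 24835 CPM (median 18840 CPM). All SFH heifers lay within the FH range, which FH heifer 24 extended at the top. The spread was wider in FH, with a coefficient of variation of 31.7% against 13.9% in SFH, a difference that was not tested. The fitted SFH level was 1.02 times the FH level (95% interval 0.80 to 1.31) (exact permutation p = 0.696).

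bta-miR-363, the X-cluster partner of miR-92a, had 214 to 1156 CPM in FH (median 686 CPM) and 399 to 1007 CPM in SFH (median 745 CPM). The lowest of all 14 values was that of FH heifer 25, and the highest was that of FH heifer 22. The fitted ratio of SFH to FH was 1.00 with a 95% interval of 0.66 to 1.51 (exact permutation p = 0.843).

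bta-miR-32 was the most variable member, with a 13.3-fold range over the 14 heifers. In FH it ran from 59.6 CPM in heifer 25 to 794 CPM in heifer 29, around a median of 381 CPM. In SFH it ran from 190 to 486 CPM, around a median of 296 CPM, so that the SFH range lay inside the FH range. The fitted ratio of SFH to FH was 0.75 with a 95% interval of 0.43 to 1.32 (exact permutation p = 0.767). This ratio depended on single FH heifers: the log2 fold change of bta-miR-32 in edgeR was −0.41 with all heifers, −0.61 without heifer 25 and −0.08 without heifer 29.

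Because all members were read from the same library, their ratios within a heifer do not depend on library scaling. For every 1000 reads of bta-miR-25, the FH heifers had 23.3 to 46.9 reads of bta-miR-92b (median 31.7) and the SFH heifers 10.1 to 26.7 (median 15.2). By this measure all FH heifers but heifer 27 exceeded all SFH heifers. The log2 ratio of bta-miR-92b to bta-miR-25 was lower in SFH by a mean of 1.03 (exact permutation p = 0.0012, adjusted p = 0.0117 over the 10 ratios among the 5 members). For bta-miR-92b alone the exact permutation p was also 0.0012. Since bta-miR-25 differed little between the groups, this ratio restates that difference and is not separate evidence. For every 1000 reads of bta-miR-92a, its nearest namesake, bta-miR-92b had 12.7 to 26.1 reads in FH (median 19.8) and 8.82 to 18.6 in SFH (median 11.5). Here 4 FH heifers were above every SFH heifer, and SFH heifer 26 stood above the other SFH heifers. The SFH minus FH difference in this log2 ratio was −0.70 (exact permutation p = 0.0070, adjusted p = 0.0350), and the adjusted value rose above 0.05 in 9 of the 14 tests that left out 1 heifer each.

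The ratio of bta-miR-92b to the other scarce members varied more. bta-miR-92b had 377 to 2387 reads per 1000 reads of bta-miR-363 in FH (median 977) and 201 to 934 in SFH (median 467). The log2 ratio differed by −1.04 (exact permutation p = 0.0233), but the adjusted p-value over the 10 ratios was 0.0777. In 3 of 7 FH heifers and 0 of 7 SFH heifers bta-miR-92b exceeded bta-miR-363. Against bta-miR-32 the difference was −0.81, and the exact permutation test did not tell the groups apart (p = 0.108, adjusted p = 0.216). The 6 ratios that did not involve bta-miR-92b had exact permutation p-values from 0.107 to 0.977, with the smallest for bta-miR-25 to bta-miR-92a.

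**Figure D2:**
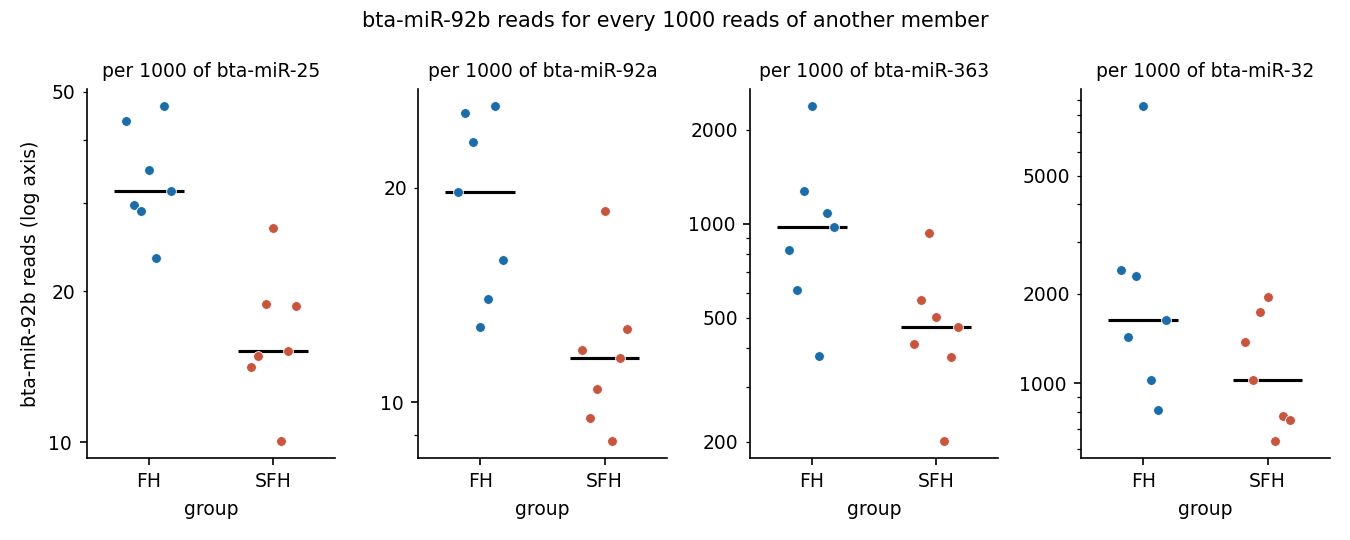
Reads of bta-miR-92b for every 1000 reads of each other member (vertical log axes), 1 point per heifer, FH in blue and SFH in red, with a black bar at the group median. The median falls from 31.7 to 15.2 per 1000 reads of bta-miR-25 and from 19.8 to 11.5 per 1000 reads of bta-miR-92a.

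As a whole the family took a similar share of reads in both groups. The summed members made up 4.07% to 6.98% of mature miRNA reads in FH (mean 5.34 ± 0.92%, SD, n = 7) and 4.17% to 6.10% in SFH (mean 5.02 ± 0.85%, SD, n = 7). FH heifer 24 had the highest share and FH heifer 29 the lowest. bta-miR-92a supplied 61.4 ± 7.20% of the family reads in FH and 56.7 ± 4.01% in SFH, and bta-miR-25 supplied 35.2 ± 6.59% and 40.4 ± 3.57% (mean ± SD over 7 heifers). bta-miR-92b supplied 1.18 ± 0.26% in FH and 0.68 ± 0.19% in SFH. The family share, being a sum over members chosen by name, was not tested.

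bta-miR-92a was the only member with more than 1 entry in the count table, with 2 entries for its precursors. The entries held 1330318 and 1086585 reads over all heifers, and the second was 76.4% to 85.3% of the first in every heifer. The proportion was 80.9 ± 2.47% in FH and 81.9 ± 2.34% in SFH (mean ± SD over 7 heifers), a difference smaller than either SD. The exact permutation test of the log2 ratio did not tell the groups apart (p = 0.426). When both entries were kept in the fit, the log2 fold changes were −0.33 (standard error 0.16) for the first and −0.31 (standard error 0.17) for the second. Their unadjusted edgeR p-values were 0.0495 and 0.0777 (adjusted 0.875 and 0.881), and both fold changes were under the threshold. The precursor of each entry is not named, and both precursors give the same mature miRNA, so the entries cannot be assigned to a cluster here. A read of that shared sequence may be counted in both entries, whose log counts had r = 0.998 over the heifers. The totals therefore cannot be read as separate outputs of the precursors, and the test of the ratio cannot compare the precursors.

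**Figure D3:**
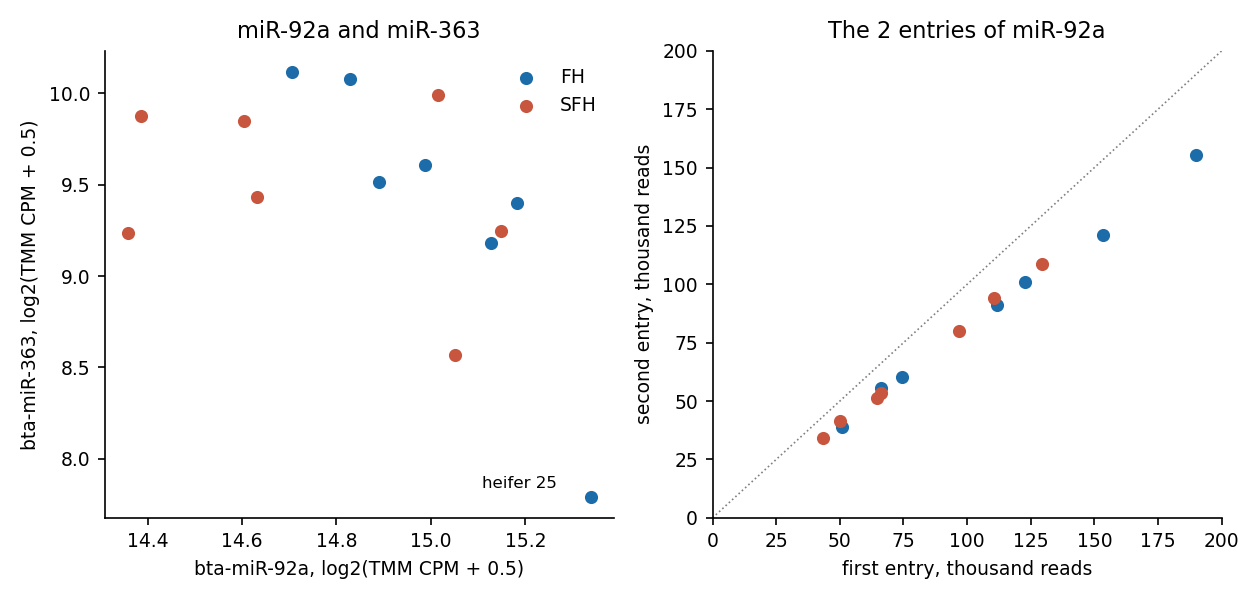
Left, bta-miR-363 against bta-miR-92a as log2(TMM CPM + 0.5) in each FH heifer (blue) and SFH heifer (red). Right, reads (in units of 1000) in the second entry of bta-miR-92a against the first, with a dotted line of equality. FH heifer 25 is lowest for bta-miR-363 and highest for bta-miR-92a, and all points on the right lie below the line.

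Across heifers within a group, 1 pair of members passed 0.05 on the log2 scale, and its relation was inverse. Correlations of log2(TMM CPM + 0.5) were computed for the 10 pairs within each group, and p-values were adjusted over the 20 values. Most pairs had r above 0 (7 in FH and 8 in SFH), up to 0.80 in FH and 0.71 in SFH. None of these positive r passed 0.05, and with 7 heifers only a large r can. In FH, bta-miR-363 and bta-miR-92a, which has a precursor in the same cluster, were inversely related with Pearson's r = −0.88 (exact permutation p = 0.0016, adjusted p = 0.0317, n = 7). Spearman's rho for this pair was −0.93 (exact permutation p = 0.0067, adjusted p = 0.135, n = 7). Without heifers 22 and 25, the farthest from the median of bta-miR-92a, r was −0.81. On the deposited CPM, without TMM scaling or logs, the same FH pair had r = −0.65 (exact permutation p = 0.122, n = 7), and −0.96 without heifers 25 and 29, so its strength differed with the scale. In SFH the pair had r = −0.34 and rho = −0.18 (exact permutation p = 0.473 and 0.713, n = 7), and r was 0.55 without heifers 21 and 23. The difference between the groups in this relation was not tested. On the log2 scale the other 18 correlations had unadjusted exact permutation p-values of r above 0.05. The pair that passed 0.05 also changed with the scale: on the deposited CPM it was bta-miR-32 with bta-miR-92a in FH (r = −0.80, exact permutation p = 0.0103, adjusted p = 0.206, n = 7), which had r = −0.71 (exact permutation p = 0.0633) on the log2 scale and r = −0.45 on the CPM scale without heifers 25 and 29. bta-miR-92b and bta-miR-92a were not detectably related in FH (r = 0.03, rho = 0.00, exact permutation p = 0.949 and 1.00, n = 7) or in SFH (r = 0.59, rho = 0.46, exact permutation p = 0.171 and 0.302, n = 7).

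The miRNAs that share a primary transcript with a member were read from the same fit. Of 11 such cluster partners, 10 passed the filter, 0 were called in either direction, and bta-miR-18b was too low to test. Their median log2 fold change was 0.16, beside 0.06 over all 341 miRNAs. bta-miR-17-5p, the head of the miR-17 cluster, had an unadjusted p-value of 0.0233 in edgeR and a log2 fold change of 0.43 (standard error 0.18), under the fold change threshold. bta-miR-92a had −0.25 (standard error 0.16), but its reads can come from this cluster or from the miR-106a-363 cluster. In the miR-106b-25 cluster, bta-miR-93 and bta-miR-106b had log2 fold changes of 0.02 and −0.07 (standard errors 0.14 and 0.18). In the miR-106a-363 cluster, bta-miR-106a had 0.57 (standard error 0.35) and bta-miR-20b 0.26 (standard error 0.30).

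**Figure D4:**
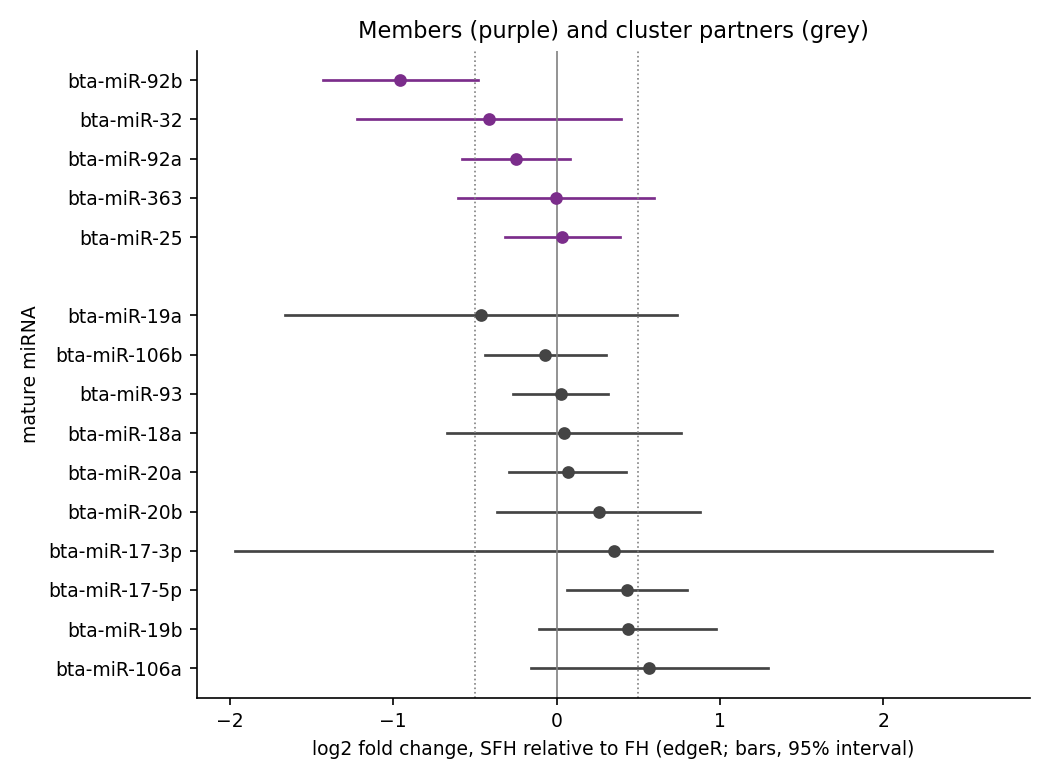
Log2 fold change of SFH relative to FH (horizontal axis) with its 95% interval from edgeR for the 5 members (purple) and the 10 tested cluster partners (grey). The dotted lines mark the threshold of 0.5, and only the interval of bta-miR-92b lies entirely below 0.

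With the group means removed, each member was compared with the 340 other miRNAs over the 14 heifers, and the highest r are given as a description. bta-miR-92b was most like bta-miR-1260b (r = 0.76), itself lower in SFH by the same rule (log2 fold change −0.61, edgeR p = 0.0101), followed by bta-miR-200c (0.65) and bta-miR-1842 (0.65), the last averaging only 12.9 CPM. bta-miR-363 was most like bta-miR-29a (0.92), bta-miR-340 (0.87) and bta-miR-192 (0.86). bta-miR-32 came closest to bta-miR-106b (0.83), bta-miR-15a (0.81) and bta-miR-27a-3p (0.80). For bta-miR-92a the highest were bta-miR-760-3p (0.80), bta-miR-2344 (0.75, at 4.98 CPM) and bta-miR-320a (0.74). bta-miR-25 had bta-miR-93, its neighbour in *MCM7*, as the second of 340 (0.72), between bta-miR-2284m (0.75, at 2.20 CPM) and bta-miR-2285bn (0.70). bta-miR-93 was the one cluster partner among the closest 3 of its own member: miR-92a had r of −0.02 to 0.32 with miR-17-5p, miR-18a, miR-19a, miR-19b and miR-20a.

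Members of this family are also plentiful in red blood cells, so the red cell markers were set beside them. Of bta-miR-451, bta-miR-486 and bta-miR-144, the first pair was counted in all 14 heifers and bta-miR-144 had 0 reads in each. Their sum was 1574 to 3712 per 1000000 mature reads in FH and 1462 to 9234 in SFH, where heifer 30 was the highest. bta-miR-451 differed by 0.72 on the log2 scale (standard error 0.39) and bta-miR-486 by −0.05 (standard error 0.35). With the red cell markers as a covariate the log2 fold change of bta-miR-92b in edgeR was −0.94 (adjusted p = 0.111), and without SFH heifer 30 it was −0.997 (adjusted p = 0.0824). That covariate averages bta-miR-451 and bta-miR-486, which differed by unlike amounts, and the part of red cells in the result was not tested. The platelet miRNAs bta-miR-126-3p and bta-miR-126-5p summed to 22.4 to 68.3 CPM of mature reads in FH and 4.52 to 46.9 in SFH, and their part in the result was not tested. The lymphocyte markers bta-miR-150 and bta-miR-342 summed to 49425 to 104495 CPM of mature reads in FH and 42757 to 108025 in SFH, and bta-miR-223 of granulocytes and monocytes to 11918 to 22775 and 15328 to 26631. The general white cell miRNAs bta-miR-142-5p and bta-miR-142-3p differed by 0.39 (standard error 0.24) and −0.15 (standard error 0.37) on the log2 scale. None of these markers was called between the groups. Among the miRNAs of other tissues, bta-miR-375 differed by −0.12 on the log2 scale (standard error 0.29). bta-miR-122, bta-miR-206, bta-miR-133a and bta-miR-200b did not pass the filter, being counted in 4, 2, 4 and 4 of 14 heifers. In single heifers bta-miR-206 reached 0.222 CPM of mature reads in FH and 55.9 in SFH, and bta-miR-133a 16.8 and 42.8. bta-miR-1 had means of 13.9 ± 24.5 CPM over FH heifers and 29.0 ± 65.0 CPM over SFH heifers (SD, n = 7). Its highest values were 68.7 CPM in FH and 176 CPM in SFH.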

How the data were processed

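Small RNA was profiled in PWBC of 14 heifers, 1 library each from different animals. Per the methods of the study, the authors trimmed adapters and end bases with cutadapt, aligned reads with miRDeep2 to ARS-UCD1.2 and to miRBase, and deposited raw counts per mature miRNA and precursor. The authors also deposited CPM for 341 miRNAs. These equal the deposited counts divided by their total over the 341 miRNAs of each heifer, checked here for all 14. Columns were matched to heifers by the number in the title.

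A mature name with several entries kept the entry with the highest total. miRNAs with at least 1 CPM in at least 7 heifers were fitted with edgeR 4.0.16 (TMM, quasi-likelihood F-test, R 4.3.3), with SFH relative to FH as the only term, over all 341. Standard errors came from the fold change and F statistic. Single members and within-heifer log2 ratios (0.5 added to CPM or counts) were compared over all 3432 arrangements of the heifers, whose smallest possible p-value is 0.00058. DESeq2 1.42.0 and limma 3.58.1 were alternatives. edgeR and the permutation routine were tested on simulated data. Permutations ran in Python 3.11.15 (scipy 1.17.1, numpy 2.4.6) and tables in pandas 2.3.3.

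The members, cluster partners, markers and alternatives were chosen with earlier results of these data known, so p-values of single members were adjusted over all 341 miRNAs or left unadjusted. Those of the ratios and correlations were adjusted over the 10 ratios and 20 correlations among the members, which are not independent of that choice. Named miRNAs are the members, 11 cluster partners, the markers, and the 3 miRNAs most like each member; bta-miR-367 was added after its value was seen. A count of 0 allows up to 3 reads, 0.549 to 1.71 CPM.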

Additional observations from a re-analysis of the deposited data

Results flagged for a closer look

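Among 42 checks of a member, ratio or family share within a group of 7 heifers, 1 value stood apart by Dixon's criterion, where chance gives about 1 in 20. It was bta-miR-363 in FH heifer 25, at 7.79 on the log2(TMM CPM + 0.5) scale. The nearest FH heifer was at 9.18, so that the gap was 0.598 of the range of the group, above the limit of 0.568. A single flag among 42 checks is no more than chance gives at that rate, and on the deposited CPM this heifer was not flagged. The same heifer was lowest for bta-miR-32 and highest for bta-miR-92a among all 14. Without it the log2 fold change of bta-miR-363 in edgeR was −0.16.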

How the results depend on the processing

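bta-miR-92b was the 1 member called in all 25 alternative fits, with log2 fold changes of −1.06 (without SFH heifer 26) to −0.86 (without SFH heifer 28). Its adjusted p-value in edgeR passed 0.05 only with every precursor entry kept (0.0474), and ranged from 0.0601 (without FH heifer 27) to 0.444 (without SFH heifer 17) with 1 heifer left out. It was 0.129 in limma-voom and 0.0054 in DESeq2. bta-miR-92a and bta-miR-32 stayed below 0 and uncalled throughout, with bta-miR-32 at −0.10 in limma-voom. Signs near 0 turned. bta-miR-25 was −0.0063 with 1 CPM required in all heifers, −0.024 with every precursor entry kept, and −0.032 to 0.17 with 1 heifer left out. bta-miR-363 was 0.042 with upper-quartile factors, 0.048 with library totals only, 0.10 in limma-voom, 0.00048 with precursor entries summed, and −0.16 to 0.12 with 1 heifer left out. The number of called miRNAs was 13 in the reported fit, 23 in limma-voom, 126 of 614 without the CPM filter, 20 with every precursor entry kept, and 11 to 22 with 1 heifer left out (22 without FH heifer 24, 20 without SFH heifer 26). The cause of these moves was not tested.

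With 1 heifer left out, the difference in the log2 ratio of bta-miR-92b to bta-miR-32 was −1.02 (without FH heifer 29, unadjusted exact permutation p = 0.0396) to −0.45 (without FH heifer 25). For bta-miR-92b to bta-miR-25 it was −1.15 to −0.92, and the adjusted exact permutation p stayed at or below 0.0175. For bta-miR-92b to bta-miR-92a it was −0.82 to −0.63, with adjusted values of 0.0117 to 0.0758, above 0.05 without FH heifers 20, 22, 24 or 29 or SFH heifers 17, 21, 28, 30 or 32. For bta-miR-92b to bta-miR-363 it was −1.26 to −0.82, with adjusted values below 0.05 without FH heifer 27 (0.0233) or SFH heifer 23 (0.0466). Other ratios turned sign: bta-miR-25 to bta-miR-32 (−0.066 to 0.57), bta-miR-25 to bta-miR-363 (−0.15 to 0.20), bta-miR-32 to bta-miR-92a (−0.35 to 0.39) and bta-miR-32 to bta-miR-363 (−0.37 to 0.0084). bta-miR-25 to bta-miR-92a had unadjusted exact permutation p = 0.0315 without FH heifer 22 and 0.0466 without FH heifer 24. Counting depth limits the scarce members most, and 7 heifers per group limit every comparison.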
